A study of Mus musculus with 12 samples.

Results

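The comparison set both T follicular helper (Tfh) gates against both PD1- gates of CD4+ T cells sorted from mouse Peyer's patches, lymphoid organs in the wall of the small intestine. All 12 arrays of the series belonged to it: the 6 arrays with CXCR5+PD1+ in the title formed the Tfh side and the 6 with PD1- in the title formed the PD1- side. Each side pooled 2 gates of 3 arrays. The Tfh side held GFP+CXCR5+PD1+ cells (GFP+ Tfh) and GFP-CXCR5+PD1+ cells (GFP- Tfh), and the PD1- side held GFP-CXCR5+PD1- and GFP-CXCR5-PD1- cells. Every mouse was of the IL-21eGFP line, a bacterial artificial chromosome transgene whose green fluorescence (GFP) reports expression of the cytokine interleukin 21, and every gate was MHC II-negative, Epcam-negative and CD4+. No age, strain background, treatment or number of pooled animals is stated in the labels. The series was designed to compare GFP+ with GFP- Tfh cells, and the pooled comparison asks which genes separate the Tfh gates, taken as a whole, from the CD4+ T cells around them.

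Tfh cells are the CD4+ T cells that enter B cell follicles, where they give B cells CD40 ligand, interleukin 21 and interleukin 4 and so sustain germinal centres. The transcriptional repressor Bcl6 directs them, the chemokine receptor CXCR5 brings them to the follicle, and the receptor PD-1 and the costimulatory receptor ICOS are held at a high level on their surface. Peyer's patches contain germinal centres at all times because the gut flora stimulates them, and the CD4+ T cells outside that gate include naive, recirculating and memory cells.

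Values are log2 expression from RMA, with array medians of 6.34 to 6.45 (mean 6.41), and differences are Tfh minus PD1- on the log2 scale, ± the moderated standard error. A difference of 1 is a factor of 2. Where a gene's arrays are listed, the numbers are the lowest, the median and the highest of the 6 arrays of a side. Of the 19937 genes with a probe set of their own, 11240 lay above the array median on at least 3 arrays and were tested with limma, the replicate number serving as block, and p-values are Benjamini-Hochberg adjusted over those 11240 genes. The labels do not say whether the 3 replicates of a gate were separate animals or pools. The p-values therefore measure the spread between these arrays, whose small number limits how finely a difference can be measured.

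The titles disagree with another label. The characteristics of the 3 GFP+ arrays call them CXCR5- and PD1-, against their titles and the sorting protocol, and the protocol describes 3 sorted populations while the CXCR5+PD1- gate appears in titles and characteristics. Groups follow the titles. The GFP+ arrays spread more widely than the others, their root mean square distance to the gate mean being 0.287 to 0.405 against 0.163 to 0.204 for the other 9 arrays. Xist was high in replicate 3 of all 4 gates (10.65 to 11.25) and low in replicates 1 and 2 (4.87 to 5.49), so each replicate number had 1 sex in every gate and sex was balanced between the sides. Epcam lay between 4.88 and 5.24 on all 12 arrays, below the array median, and the T cell gene Cd3e between 11.16 and 11.74.

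The 4 genes that define the gate or the lineage were all higher on the Tfh side. Cxcr5 stood at 7.91, 8.62 and 9.14 on the Tfh arrays and at 5.19, 5.69 and 6.19 on the PD1- arrays, a difference of 2.92 ± 0.22 (adjusted p = 4.44e-06) or 7.54-fold. Pdcd1, which encodes PD-1, stood at 8.26, 9.23 and 9.48 against 6.81, 6.94 and 7.31, a difference of 2.09 ± 0.15 (adjusted p = 4.35e-06). The lowest Tfh array lay above the highest PD1- array for both, as it did for the 2 genes that follow. Icos, the costimulatory receptor, stood at 11.68, 11.91 and 12.10 against 10.47, 10.60 and 10.92 and differed by 1.28 ± 0.08 (adjusted p = 2.33e-06). Bcl6 stood at 9.43, 9.85 and 10.12 against 8.10, 8.23 and 8.38 and differed by 1.59 ± 0.12 (adjusted p = 5.97e-06). Since cells were sorted on the proteins CXCR5 and PD-1, the first pair checks the labels and is no finding about the cells.

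Within the PD1- side Cxcr5 RNA did not follow the labelled CXCR5 gate. It averaged 5.61 in the CXCR5+PD1- gate and 5.71 in its CXCR5- counterpart, both below the array median, a difference of -0.10 ± 0.23. Cd4 itself, used to sort all 4 gates, was higher on the Tfh side, at 10.07, 10.32 and 10.52 against 9.52, 9.73 and 9.99, a difference of 0.53 ± 0.08 (adjusted p = 0.00129) with no overlap of arrays.

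**Figure D1:**
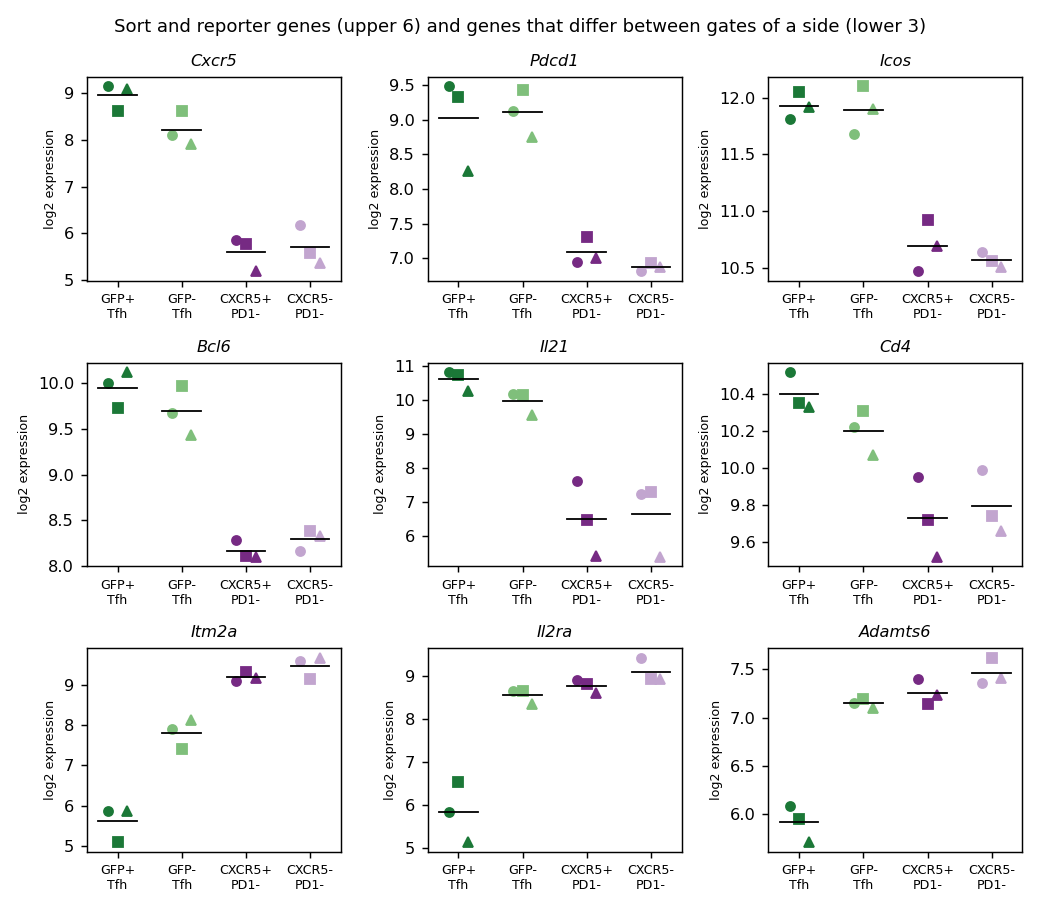
Log2 expression of the sort and reporter genes (upper 6 panels) and of the 3 genes that differ between gates of a side (lower 3 panels), 1 symbol per array (circle, square and triangle for replicates 1, 2 and 3) with the mean of each gate as a line, on vertical axes that do not start at 0. Cxcr5, Pdcd1, Icos and Bcl6 separate both Tfh gates from both PD1- gates, while Itm2a, Il2ra and Adamts6 are low in the GFP+ Tfh gate.

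Across the genome the comparison was close to balanced. Of the 11240 genes tested, 1275 (11.3%) passed an adjusted p of 0.05 in limma, 642 of them higher in the Tfh gates (5.71%) and 633 lower (5.63%), and the median difference over all genes tested was -0.02. The median size of a called difference was 0.67 for higher and 0.65 for lower genes. Differences over 1 numbered 147 upward and 143 downward, and differences over 2 numbered 18 and 22. The 3 replicate numbers agreed in sign for 1274 of the 1275 called genes, which the call itself makes likely because it rests on the same arrays. Of all genes tested 7.56% had sides that did not overlap, 3.49% with the Tfh arrays higher and 4.07% with them lower, and 788 of the called genes were among these. Just inside the threshold lay Armcx3 (0.66 ± 0.19, adjusted p = 0.0496) and Arid5b (0.47 ± 0.14, adjusted p = 0.05), and just outside it Otud1 (-0.80 ± 0.24) and Pde3b (0.46 ± 0.14, adjusted p = 0.0501 for both).

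The count of called genes moved with the arrays that entered. Without the widely spread GFP+ Tfh gate it was 1320 (57.8% higher) and without the GFP- Tfh gate 1016 (41.4% higher). It was 507 without the CXCR5-PD1- gate and 544 without the CXCR5+PD1- gate, 661 without replicate 1 and 654 without replicate 2, and 237 when a difference had to exceed 0.5 (limma's treat). Of the 172 called genes named in the text, 74 kept their call under all 33 alternative settings, except that Hmox1 did not enter the one with the 70th percentile filter. Of genes that did not pass, Rpl12 passed without GFP+ Tfh replicate 3, Il17a without GFP+ Tfh replicate 2, Eif2ak3 without GFP+ Tfh replicate 1 or CXCR5-PD1- replicate 1, and Foxp3 without the GFP- Tfh gate, besides Cybb, Il2ra and Adamts6 as described with their values. The calls of Aldoc, Atp8a1, Ccl5, Cd40lg, Creld2, Ern1, Fdft1, Gzmb, Il18r1, Ly96, Nlrc3, Pax5, Runx3, Smad4, Socs3, Tnfrsf4 and Tnfsf10 were lost on leaving out at least 1 single array, and 43 calls were lost without replicate 1, 42 without replicate 2 and 16 without replicate 3. For 92 of the higher genes the PD1- mean, and for 93 of the lower genes the Tfh mean, lay below the array median, where RMA compresses differences, so these differences can be larger than printed. In a sorted population fewer cells with a transcript and less of it per cell cannot be told apart.

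**Figure D2:**
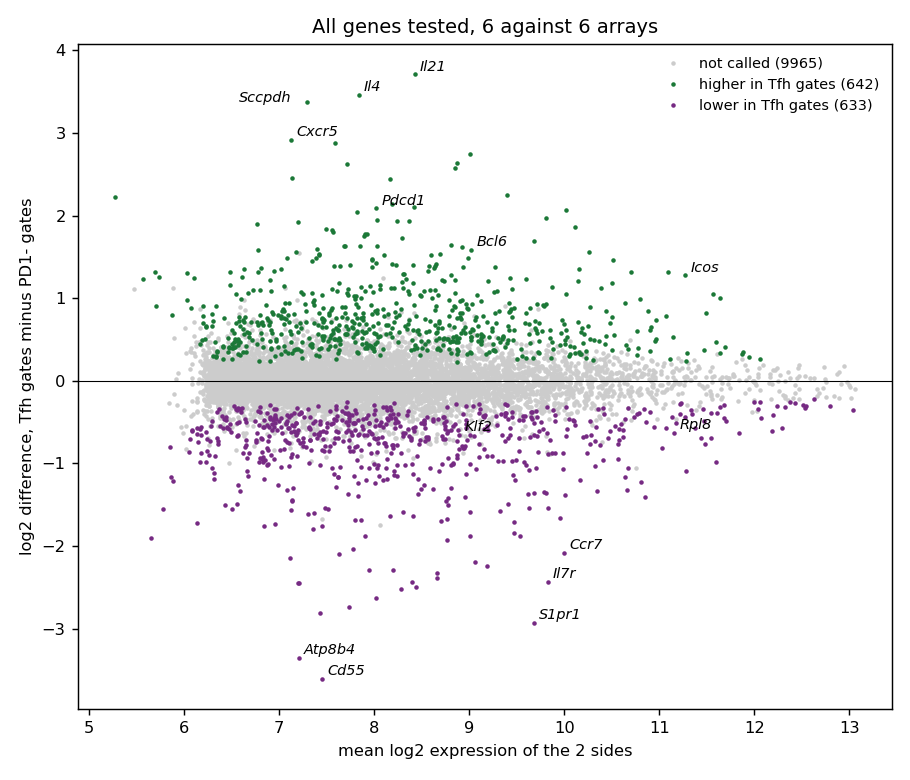
Difference between the sides (Tfh minus PD1-, log2) of each of the 11240 genes tested, plotted against the mean log2 expression of both sides, with called genes in green (642 higher) and purple (633 lower). Il21, Il4 and Sccpdh lie highest, and Cd55, Atp8b4 and S1pr1 lie lowest.

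The 2 widest differences upward belonged to helper cytokines. Il21, which drives B cell proliferation and plasma cell formation, stood at 9.57, 10.21 and 10.82 on the Tfh arrays and at 5.39, 6.85 and 7.63 on the PD1- arrays, 13.1-fold higher (3.71 ± 0.25, adjusted p = 2.99e-06). Il4, which supports germinal centre B cells and class switching, stood at 6.84, 10.04 and 10.41 against 5.40, 6.27 and 6.48 (3.46 ± 0.45, adjusted p = 0.000298). The GFP+ arrays, selected on the Il21 reporter, averaged 10.60 for Il21 and the GFP- Tfh arrays 9.96, so the gene was high in both Tfh gates. The Il4 arrays did not overlap either, although replicate 3 of GFP+ Tfh stood at 6.84 and the other 5 Tfh arrays at 9.69 or above.

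The sequences upstream of these genes are shown because transcription of both cytokines in T cells is known to use NFAT, whose genes Nfatc1 and Nfatc2 were also higher in Tfh cells, and the sequence upstream of Cd55 because it led the lower genes. Each is the 250 bases before the annotated RefSeq start (GRCm38.p6, minus strand), at chr3:37232637-37232886 for Il21, chr11:53618666-53618915 for Il4 and chr1:130462745-130462994 for Cd55. Capitals mark the NFAT core GGAAA or its reverse complement TTTCC in Il21 and Il4, and the core CACCC or its reverse complement GGGTG, bound by KLF factors, in Cd55.
Il21: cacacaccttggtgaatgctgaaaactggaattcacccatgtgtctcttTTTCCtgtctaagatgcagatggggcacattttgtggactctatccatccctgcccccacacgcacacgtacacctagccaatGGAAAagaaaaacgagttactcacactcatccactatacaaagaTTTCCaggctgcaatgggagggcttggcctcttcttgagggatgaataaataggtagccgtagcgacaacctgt
Il4: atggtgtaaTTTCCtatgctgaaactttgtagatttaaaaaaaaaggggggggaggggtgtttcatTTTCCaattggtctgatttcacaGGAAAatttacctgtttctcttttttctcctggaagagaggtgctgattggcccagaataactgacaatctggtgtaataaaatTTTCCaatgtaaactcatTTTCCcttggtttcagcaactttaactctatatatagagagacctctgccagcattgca
Cd55: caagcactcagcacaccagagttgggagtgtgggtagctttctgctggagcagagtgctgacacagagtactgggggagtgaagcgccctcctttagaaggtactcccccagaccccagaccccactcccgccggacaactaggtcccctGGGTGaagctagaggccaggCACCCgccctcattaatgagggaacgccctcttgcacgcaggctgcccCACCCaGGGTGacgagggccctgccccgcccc
The Il21 window held 3 matches to the NFAT core, the Il4 window 5, from the first of 2 listed starts, and the Cd55 window 4 matches to the KLF core. Both short motifs are common. The NFAT core occurred in 55.6% of all promoter windows of this length in the RefSeq table and in 53.3% of those of the genes tested, in 51.9% of the windows of genes higher in Tfh and in 52.2% of those of lower genes. The KLF core occurred in 52.0% of all windows and 57.9% of those of the genes tested, 62.1% of those of higher genes and 58.5% of those of lower genes. A match is a description of the letters and says nothing of binding.

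After these cytokine genes, Sccpdh and Cxcr5, the widest upward differences without overlap were those of a decoy receptor, a lysosomal and an endosomal gene and inflammatory caspases. Il1r2, the decoy receptor that binds interleukin 1 without signalling, stood at 8.42, 9.19 and 9.61 against 5.24, 6.25 and 6.82 (2.87 ± 0.17, adjusted p = 9.64e-07). Grn, the precursor of progranulin, stood at 9.77, 10.52 and 10.62 against 7.17, 7.61 and 8.20 (2.75 ± 0.15, adjusted p = 6.44e-07). Eea1, which tethers early endosomes, stood at 9.74, 10.15 and 10.63 against 6.92, 7.61 and 8.03 (2.63 ± 0.12, adjusted p = 4.58e-07). Each of these 3 genes was at least 2 log2 units higher on average, and no PD1- array reached the lowest Tfh array, as their selection required.

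Casp1, the caspase that matures interleukin 1 beta, stood at 8.35, 9.12 and 9.50 against 5.77, 6.43 and 6.87 (2.62 ± 0.19, adjusted p = 3.70e-06). Casp4, which encodes mouse caspase 11, a sensor of bacterial lipopolysaccharide, stood at 9.59, 10.24 and 10.43 against 6.82, 7.73 and 7.97 (2.57 ± 0.19, adjusted p = 3.70e-06). They are neighbouring paralogues, and whether their probes read each other's transcripts was not tested. Sccpdh, a gene for a saccharopine dehydrogenase-like protein, stood at 8.47, 8.80 and 9.70 against 5.01, 5.76 and 5.88 (3.37 ± 0.22, adjusted p = 2.37e-06). Ptpn13, a tyrosine phosphatase, stood at 8.93, 9.27 and 9.94 against 6.80, 6.92 and 7.22 (2.44 ± 0.14). Zdhhc2, a palmitoyltransferase, stood at 7.91, 8.26 and 9.29 against 5.31, 5.91 and 6.32 (2.45 ± 0.22). All of these separated the sides completely, as their selection required, and the PD1- arrays of Sccpdh and Zdhhc2 lay below the array median.

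**Figure D3:**
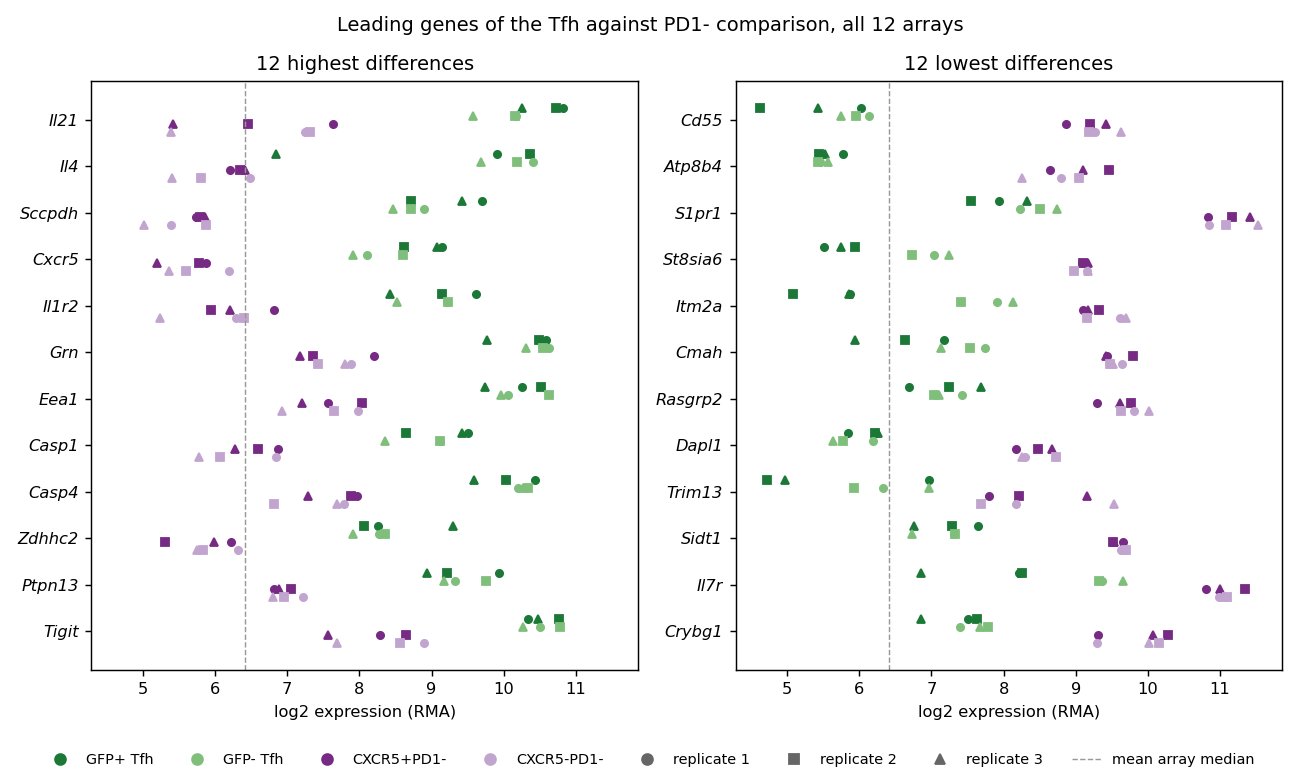
Log2 expression on all 12 arrays of the 12 genes with the highest (left) and the 12 with the lowest (right) differences among called genes whose sides do not overlap, coloured by gate and shaped by replicate, with the mean array median as a dashed line. The green Tfh arrays and the purple PD1- arrays of every gene are apart, and St8sia6, Itm2a and Il7r show a gap between GFP+ and GFP- Tfh.

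Among the 5 smallest p-values upward, Eea1 was also among the 12 widest differences, and the other 4 genes were not. Slc9a9, an endosomal sodium-proton exchanger, stood at 10.55, 10.83 and 10.93 against 8.63, 8.85 and 9.0 (1.97 ± 0.09, adjusted p = 4.58e-07). Cd44, the hyaluronan receptor that marks antigen-experienced T cells, stood at 9.21, 9.36 and 9.48 against 7.70, 7.82 and 8.07 (1.52 ± 0.08, adjusted p = 4.58e-07). Tbc1d4, a Rab GTPase-activating protein, stood at 8.35, 8.50 and 8.70 against 6.78, 6.85 and 7.04 (1.63 ± 0.08, adjusted p = 4.58e-07). Within a side the 6 arrays of these genes lay within 0.5 log2 units of each other, and the sides lay well apart. Nav2, a neuron navigator gene, was the other of the 4 (2.14 ± 0.10, adjusted p = 4.58e-07).

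The widest difference of all genes downward was that of Cd55, whose product, decay-accelerating factor, protects cells from complement. Cd55 stood at 4.63, 5.85 and 6.14 on the Tfh arrays and at 8.86, 9.23 and 9.63 on the PD1- arrays, 12.2-fold lower (-3.60 ± 0.22, adjusted p = 1.42e-06). Atp8b4, a P4-ATPase of the family that moves phospholipids between membrane leaflets, stood at 5.43, 5.49 and 5.78 against 8.25, 8.92 and 9.46 (-3.35 ± 0.17, adjusted p = 4.58e-07). All 6 Tfh arrays of both genes lay below the array median and all 6 PD1- arrays more than 1 log2 unit above it. S1pr1, the sphingosine-1-phosphate receptor by which T cells leave lymphoid tissue, stood at 7.55, 8.28 and 8.74 against 10.83, 11.12 and 11.52 (-2.93 ± 0.15, adjusted p = 4.58e-07). It remained above the array median on every Tfh array.

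Other genes among the 12 lowest encode surface, glycan and signalling proteins. St8sia6, a sialyltransferase, stood at 5.51, 6.33 and 7.24 against 8.97, 9.13 and 9.17 (-2.74 ± 0.28, adjusted p = 5.43e-05). Cmah, the hydroxylase that turns N-acetylneuraminic acid into its glycolyl form, stood at 5.94, 7.15 and 7.74 against 9.42, 9.49 and 9.79 (-2.52 ± 0.23, adjusted p = 2.32e-05). Rasgrp2, which activates Rap1 and with it integrins, stood at 6.69, 7.17 and 7.68 against 9.29, 9.69 and 10.01 (-2.49 ± 0.15, adjusted p = 1.42e-06). The PD1- arrays of St8sia6 and Cmah lay within 0.5 units of each other, while the Tfh arrays spread over more than 1 unit.

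Il7r, the interleukin 7 receptor that keeps resting T cells alive, stood at 6.86, 8.79 and 9.66 against 10.81, 11.02 and 11.34 (-2.44 ± 0.40, adjusted p = 0.00167), with GFP+ Tfh averaging 7.77 and GFP- Tfh 9.45. Sidt1, of the SID1 transmembrane family, stood at 6.73, 7.30 and 7.65 against 9.52, 9.64 and 9.69 (-2.44 ± 0.12, adjusted p = 4.58e-07). Dapl1 stood at 5.64, 6.02 and 6.26 against 8.17, 8.39 and 8.72 (-2.45 ± 0.14, adjusted p = 8.24e-07). The last 3 genes did not overlap between sides, as their selection required, and the call of Il7r was lost when the CXCR5-PD1- gate was left out. Trim13, a ubiquitin ligase, was lower by a similar size with a larger error (-2.44 ± 0.40), as its Tfh arrays ranged from 4.72 to 6.97 and its PD1- arrays from 7.68 to 9.53. Crybg1 was lower as well (-2.38 ± 0.17, the brighter of 2 probe sets used). Its difference ranged from -2.65 to -1.18 over the 33 alternative settings, which include the mean of the probe sets. Txnip, an inhibitor of thioredoxin and of glucose uptake, and Treml2, a receptor of the TREM family, had some of the smallest p-values downward (-1.66 ± 0.09, adjusted p = 6.81e-07, and -1.55 ± 0.09, adjusted p = 8.24e-07).

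The gene lists were read by counts of called members against the 11.3% called among all genes, and by their median difference against -0.02. Of 29 measured genes of the Tfh program, 27 were tested, 25 were higher, Il6ra was lower and Irf4 did not pass, with a median difference of 1.38. Of 19 measured genes of naive and recirculating cells, all tested, 17 were lower, with a median of -1.5. The 2 that did not pass, Foxo1 and Tspan32, differed by 0.04 and 0.21. Both lists hold genes known from sorted cells of this kind, and the Tfh list holds Cxcr5, Pdcd1 and Il21, so their direction is not independent of the gates. All lists and their members were also chosen with earlier results of these data known. Their counts beside the 11.3% are therefore descriptive and no independent test.

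**Figure D4:**
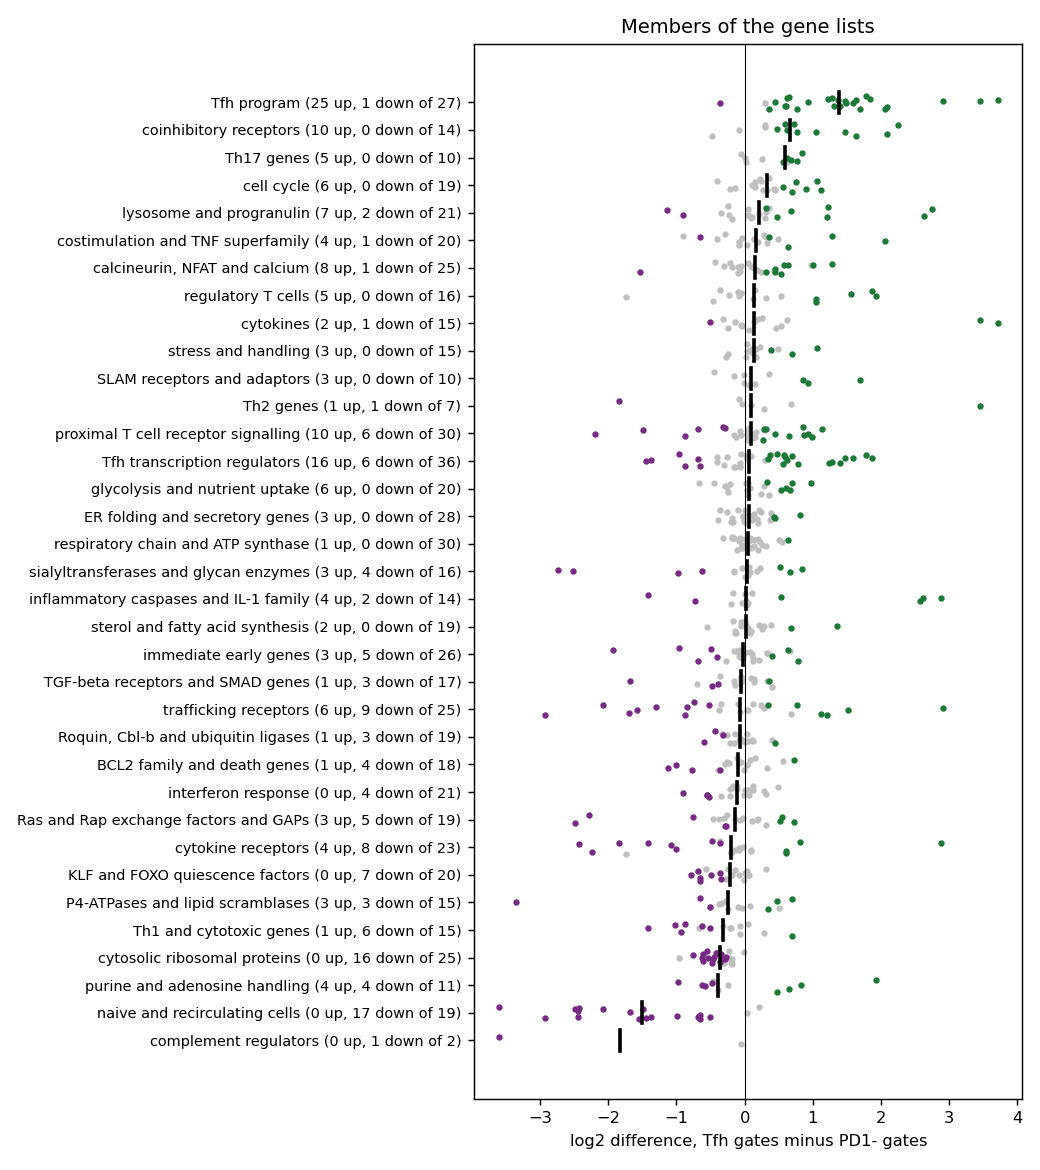
Difference between the sides (Tfh minus PD1-, log2) of every tested member of each T cell, pathway and quality list, with called members in green (higher) or purple (lower), the others in grey and the list's median as a black bar. The Tfh program has its median at 1.38 and naive and recirculating cells at -1.5, and most pathway lists centre near 0.

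Tfh genes beyond the gate covered ligands, adaptors and transcription factors. Tnfsf8, the CD30 ligand, stood at 10.88, 11.04 and 11.27 against 8.48, 9.02 and 9.30 (2.06 ± 0.13, adjusted p = 1.36e-06). Sh2d1a, whose product SAP carries SLAM receptor signals that T cells need to stay with B cells, stood at 10.23, 10.51 and 10.76 against 8.62, 8.79 and 9.16 (1.69 ± 0.12, adjusted p = 2.93e-06). Cd200, an inhibitory ligand common on Tfh cells, stood at 7.78, 8.76 and 9.05 against 6.40, 7.04 and 7.75 (1.63 ± 0.17, adjusted p = 6.23e-05). The sides did not overlap for these 3 genes, although replicate 3 of GFP+ Tfh brought Cd200 close to it. Il6ra, the interleukin 6 receptor chain, was the exception in direction, at 7.78, 7.94 and 8.11 against 8.15, 8.30 and 8.63 (-0.35 ± 0.08, adjusted p = 0.0132), while Il6st, its signalling partner, was higher (0.60 ± 0.09, adjusted p = 0.00124).

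Of 36 transcription regulators tested, 16 were higher and 6 lower, with a median of 0.07. Tox, an HMG box factor of Tfh and of chronically stimulated cells, stood at 10.82, 11.29 and 11.52 against 9.61, 9.83 and 9.88 (1.47 ± 0.11, adjusted p = 3.66e-06), and its relative Tox2 was higher by 1.78 ± 0.14. Ikzf2, which encodes Helios, stood at 10.91, 11.05 and 11.16 against 8.50, 9.18 and 9.69 (1.87 ± 0.14, adjusted p = 4.35e-06). Nfatc1, the NFAT factor induced by receptor signals, stood at 9.12, 9.46 and 9.76 against 7.89, 8.19 and 8.35 (1.28 ± 0.09, adjusted p = 3.19e-06). Among the lower members, Lef1, a partner of beta-catenin that is high in naive cells, stood at 8.89, 9.38 and 9.67 against 10.47, 10.71 and 10.87 (-1.38 ± 0.11, adjusted p = 5.97e-06). None of these arrays overlapped between sides. Maf, an activator of Il4 and Il21, was higher (1.40 ± 0.16) and Bach2, a repressor of effector programs, lower (-1.45 ± 0.13). The Th1 factor Tbx21 and the Th2 factor Gata3 did not pass (-0.07 ± 0.11 and 0.10 ± 0.17).

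Coinhibitory receptor and ligand genes were higher as a group: 10 of 14 tested members passed upward, with a median of 0.67. The 10 include Pdcd1, whose protein was a sort marker, and ligand genes, namely Cd200 and the genes of the PD-1 ligands. Tigit stood at 10.27, 10.49 and 10.78 against 7.57, 8.43 and 8.90 (2.25 ± 0.15, adjusted p = 2.75e-06). Ctla4, which competes with CD28 for its ligands, stood at 11.99, 12.10 and 12.19 against 10.72, 11.17 and 11.21 (1.05 ± 0.07, adjusted p = 3.66e-06). Lag3, a ligand of class II molecules, stood at 8.30, 8.66 and 9.37 against 6.72, 7.23 and 7.66 (1.47 ± 0.15, adjusted p = 4.11e-05). For these 3 genes every Tfh array lay above every PD1- array. Cd160 was higher by less (0.48 ± 0.09) with overlapping arrays.

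The costimulation and TNF superfamily list moved less, with 4 of 20 tested members higher and 1 lower and a median of 0.16. Besides Tnfsf8 and Icos the higher members were Tnfrsf4 (OX40, 0.64 ± 0.16, adjusted p = 0.0266) and Cd40lg, the CD40 ligand (0.36 ± 0.10, adjusted p = 0.0313). Cd40lg arrays overlapped, at 8.92 to 9.23 against 8.40 to 9.18. The lower member was Tnfsf10, the TRAIL ligand (-0.66 ± 0.18, adjusted p = 0.0374). Cd28 differed by 0.04 ± 0.09 and did not pass. Of 10 SLAM family receptors and adaptors, 3 were higher: Sh2d1a, Slamf6 (0.93 ± 0.11, adjusted p = 0.000186) and the kinase gene Fyn, which binds SAP (0.85 ± 0.12, adjusted p = 0.000693).

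Cytokine genes other than Il21 and Il4 changed little. Of 15 tested, 2 were higher and 1 lower, the chemokine Ccl5 (-0.51 ± 0.15, adjusted p = 0.0481), and the list's median was 0.14. Cytokine receptors moved more often downward, with 8 of 23 lower and 4 higher and a median of -0.2. Il4ra, the receptor of interleukin 4, stood at 7.81, 8.60 and 8.91 against 9.97, 10.51 and 10.56 (-1.84 ± 0.17, adjusted p = 2.57e-05). Ifngr2, the signalling chain of the interferon gamma receptor, stood at 7.35, 8.18 and 8.56 against 9.63, 10.55 and 10.71 (-2.24 ± 0.22, adjusted p = 4.11e-05), and its partner Ifngr1 was lower by less (-1.07 ± 0.24). Il2rb, shared by the receptors of interleukins 2 and 15, was the reverse, at 9.38, 9.75 and 9.90 against 8.49, 8.87 and 9.15 (0.82 ± 0.10, adjusted p = 0.000291). The Tfh side thus had more Il4 and less Il4ra RNA, each without overlap of arrays.

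Trafficking receptors divided by direction, with 6 of 25 tested members higher and 9 lower and a median of -0.07. Ccr7, which guides T cells to the T zone, stood at 8.29, 8.99 and 9.63 against 10.63, 11.06 and 11.32 (-2.08 ± 0.17, adjusted p = 9.26e-06). Itga6, a laminin-binding integrin chain, was lower (-1.70 ± 0.17), as were Selplg, the selectin ligand PSGL-1 (-1.30 ± 0.15), and Itgb7, a chain of the gut-homing integrin (-0.85 ± 0.09). Itgal, the LFA-1 chain, stood at 9.52, 9.87 and 10.01 against 8.24, 8.68 and 8.86 (1.21 ± 0.10, adjusted p = 1.37e-05). The integrin chains thus lay on both sides of 0, Itgal higher and Itga6 and Itgb7 lower. Gpr183, the EBI2 receptor that draws cells to the follicle's edge, did not pass (-0.38 ± 0.12, adjusted p = 0.0774).

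The list of quiescence factors, built around the KLF and FOXO families, had 7 of 20 tested members called, all lower (median -0.22). No FOXO gene was among the 7, and Foxo1 did not pass. Tsc22d3, the glucocorticoid-induced leucine zipper gene, stood at 7.44, 7.68 and 8.07 against 8.37, 8.44 and 8.77 (-0.78 ± 0.08, adjusted p = 3.31e-05). Klf2, which maintains S1pr1 and is known to oppose Tfh formation, stood at 8.36, 8.54 and 8.77 against 9.08, 9.20 and 9.40 (-0.66 ± 0.07, adjusted p = 0.000104). Foxp1, another factor of resting T cells, stood at 8.90, 9.05 and 9.28 against 9.66, 9.74 and 9.90 (-0.69 ± 0.08, adjusted p = 0.000199). These factors stayed well above the array median on both sides, with differences under 1, smaller than those of S1pr1, Ccr7 and Il7r. Klf3 (-0.65 ± 0.10) and Tob1 (-0.49 ± 0.08), an antiproliferative gene, were lower too.

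Genes of proximal T cell receptor signalling passed in both directions, 10 of 30 higher and 6 lower, with a median of 0.09. Txk, a Tec family kinase, stood at 7.16, 8.14 and 8.47 against 9.66, 10.32 and 10.46 (-2.20 ± 0.22, adjusted p = 4.11e-05). Malt1, the paracaspase that links the receptor to NF-kappaB, stood at 11.07, 11.35 and 11.41 against 10.16, 10.32 and 10.42 (0.99 ± 0.08, adjusted p = 6.40e-06). Ptpn22, a phosphatase that restrains the receptor, stood at 10.97, 11.10 and 11.33 against 9.91, 10.20 and 10.42 (0.94 ± 0.08, adjusted p = 1.31e-05). The sides did not overlap for any of them. The kinases of diacylglycerol diverged, Dgkz being higher (0.86 ± 0.10, adjusted p = 9.98e-05) and Dgka lower (-0.69 ± 0.08, adjusted p = 0.000186). Dgkz has 2 probe sets, of which the brighter was used. Its difference ranged from 0.43 to 0.97 over the 33 alternative settings, which include the mean of the probe sets. Zap70, the kinase recruited to the receptor, was higher by 0.65 ± 0.11.

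Of 19 Ras and Rap regulators, 3 were higher and 5 lower (median -0.14). Besides Rasgrp2 the widest difference was that of Rasa3, a GTPase-activating protein of Ras and Rap1, at 6.40, 6.75 and 7.22 against 8.68, 9.14 and 9.30 (-2.29 ± 0.17, adjusted p = 4.22e-06). An activator and an inhibitor of Rap1 were thus both more than 4-fold lower. Rapgef6 was lower (-0.76 ± 0.10), and Rap1a itself (0.73 ± 0.10) and Rasa1 (0.55 ± 0.10) were higher.

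Of 25 genes for calcineurin, NFAT and calcium signalling, 8 were higher and 1 lower (median 0.15). The lower one was Ppp3ca, the alpha catalytic subunit of calcineurin, at 6.21, 6.69 and 7.22 against 8.09, 8.27 and 8.34 (-1.54 ± 0.18, adjusted p = 0.00016). Nfatc1, given above, Nfatc2 (0.58 ± 0.08, adjusted p = 0.000356) and the potassium channel gene Kcna3 (0.63 ± 0.09) were higher, as was the calcium-binding S100a11 (1.0 ± 0.09, adjusted p = 1.64e-05). The enzyme's subunit gene and the genes of its targets therefore lay on opposite sides of 0.

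Immediate early genes, which respond within minutes to receptor signals and to handling, had 3 higher and 5 lower of 26 (median -0.02). Egr2 stood at 11.30, 11.47 and 11.59 against 10.34, 10.72 and 11.01 (0.78 ± 0.08, adjusted p = 6.73e-05). Nr4a1, a commonly used readout of receptor signalling, stood at 8.35, 8.90 and 9.35 against 9.68, 9.85 and 9.99 (-0.97 ± 0.12, adjusted p = 0.000229). Myc stood at 6.19, 8.18 and 8.92 against 9.43, 9.69 and 10.20 (-1.93 ± 0.39, adjusted p = 0.0062). The sides of all 3 genes were apart, Egr2 upward and the others downward. The call of Myc was lost without replicate 2, without either PD1- gate and with a minimum difference of 0.5. Nr4a3 was higher (0.64 ± 0.09), and so was Dusp1 (0.40 ± 0.07), while Cd69, an early surface marker that holds cells in tissue, was lower (-0.49 ± 0.09). Of 15 genes of stress and handling, 3 were higher (median 0.13), led by Hmox1, which degrades haem (1.06 ± 0.11, adjusted p = 7.00e-05), with Gadd45b (0.69 ± 0.15) and Bag3 (0.39 ± 0.08). The part of handling in the early genes was not tested.

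The lists of other helper lineages did not share a direction. Of 15 genes of the Th1 and cytotoxic program, 12 lay below 0, and 6 were called lower and 1 higher, with a median of -0.32. Prf1, perforin, stood at 6.69, 6.71 and 7.13 against 7.17, 7.45 and 7.64 (-0.62 ± 0.08, adjusted p = 0.000428). Il18r1, the interleukin 18 receptor, stood at 6.25, 8.72 and 9.06 against 9.27, 9.70 and 10.09 (-1.41 ± 0.35, adjusted p = 0.0214), Ctsw was lower by -1.02 ± 0.22, Runx3 by -0.88 ± 0.22 and Gzmb, granzyme B, by -0.93 ± 0.26 (adjusted p = 0.0402). Stat4 was higher (0.69 ± 0.14). Markers of CD8, NK and gamma delta T cells moved with this list: 2 of their 7 tested members were lower (Prf1 and Gzmb, shared with it) and Cd160 was higher, and the mean level of the 13 members measured was -0.98 to -0.77 relative to the array median on the Tfh arrays and -0.73 to -0.35 on the PD1- arrays. Cd8a lay at 5.97 to 6.75 on the Tfh arrays and at 6.53 to 7.32 on the PD1- arrays, and the killer cell genes Ncr1, Klrk1 and Klrb1c did not reach the filter. The part of such cells in the result was not tested.

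Of 10 Th17 genes, 9 lay above 0 and 5 were called higher, with a median of 0.59. The 5 called were Batf (0.62 ± 0.08, adjusted p = 0.000396), Ccr6 (0.76 ± 0.11, adjusted p = 0.000567), Il23r (0.84 ± 0.14), Rora (0.56 ± 0.10) and Ahr (0.68 ± 0.14). Batf is also a Tfh factor, and Ccr6 stood at 7.03 to 7.93 against 6.36 to 6.91 with no overlap. Il17a and Il17f differed by 0.62 and 0.26 and did not pass. The Th2 list had Il4 higher and Il4ra lower among 7 genes (median 0.10).

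Of 16 genes of regulatory T cells, 5 were higher (median 0.14), and the lineage's own factor was not among them. Foxp3 stood at 6.73, 7.39 and 7.84 against 7.51, 7.78 and 8.15 (-0.47 ± 0.19, adjusted p = 0.16). Nt5e, the ecto-enzyme CD73 that makes adenosine, stood at 8.95, 9.41 and 9.69 against 6.85, 7.46 and 7.80 (1.93 ± 0.14, adjusted p = 4.35e-06). Itgb8, a chain of an integrin that activates TGF-beta, stood at 6.75, 8.20 and 8.61 against 6.28, 6.39 and 6.53 (1.55 ± 0.25, adjusted p = 0.0015), and its call was lost without replicate 1. Izumo1r, folate receptor 4, was higher too (1.05 ± 0.11, adjusted p = 7.28e-05). Ctla4, Nt5e and Ikzf2 are thus genes shared by Tfh and regulatory T cells that were higher while Foxp3 did not pass, its arrays overlapping. What share of either side were regulatory T cells was not tested.

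In the list of purine and adenosine genes 4 of 11 were higher and 4 lower (median -0.39). Nt5e and Dpp4, the surface peptidase CD26, were higher, Dpp4 with a Tfh median of 9.93 and every Tfh array at or above 9.48 against a PD1- range of 8.76 to 9.26 (0.83 ± 0.08, adjusted p = 4.59e-05). Ada, adenosine deaminase itself, stood at 5.30, 5.74 and 6.31 against 6.53, 6.68 and 7.03 (-0.98 ± 0.16, adjusted p = 0.00181). The gene for the enzyme that makes adenosine was thus higher and that for the enzyme that removes it lower, each without overlap. Every Tfh array of Ada lay below the array median. The call of Ada was lost without the CXCR5-PD1- gate and with a minimum difference of 0.5. P2rx7, the ATP-gated channel known to limit Tfh cells in Peyer's patches, was higher (0.66 ± 0.08, adjusted p = 0.000229), and Slc17a9, the vesicular ATP transporter, was lower (-0.62 ± 0.10).

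Of 14 genes of inflammatory caspases and the interleukin 1 family, 4 were higher and 2 lower (median 0.02). Besides Il1r2, Casp1 and Casp4 the higher member was Aim2, a DNA sensor (0.54 ± 0.12, adjusted p = 0.0104), and the lower ones were Nlrc3 (-0.72 ± 0.18) and Il18r1. Il1b, Il1a, Il18 and Nlrp3 did not reach the filter. Since Grn, Il1r2 and the caspases are also expressed by myeloid cells, that marker list is given here: none of its 9 tested members passed in limma (1 at an unadjusted p under 0.05), and the mean level of the 20 measured members was -0.35 to 0.03 relative to the array median on the Tfh arrays and -0.46 to -0.12 on the PD1- arrays. Csf1r, Itgam, Itgax, Adgre1 and Cd14 did not reach the filter. Cybb, a subunit of the phagocyte oxidase, stood at 5.33, 8.16 and 8.62 against 5.43, 6.61 and 7.42 (1.13 ± 0.50, adjusted p = 0.209). It passed upward in 6 of 33 alternative settings, with a difference of 1.58 and an adjusted p of 0.0119 in limma without GFP+ Tfh replicate 3, and 2.01 and 0.00483 without the GFP+ Tfh gate. Across the settings 0 to 2 members of the myeloid list passed upward and 0 to 1 downward. The part of myeloid cells in these results was not tested.

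Genes of the BCL2 family and of cell death were mostly lower where they passed, 4 of 18 lower and 1 higher (median -0.10). Bcl2, which blocks mitochondrial death, stood at 8.73, 9.01 and 9.54 against 9.99, 10.13 and 10.16 (-1.01 ± 0.11, adjusted p = 6.56e-05). Bcl2l11, the death activator BIM, stood at 7.53, 7.81 and 8.22 against 8.34, 9.14 and 9.39 (-1.12 ± 0.14, adjusted p = 0.000189). Guardian and killer were thus both about 1 log2 unit lower, with no overlap. Mcl1, another guardian, was lower by -0.77 ± 0.16, and Pmaip1, the death gene NOXA that binds it, was higher (0.73 ± 0.13). The remaining lower member, a caspase gene, lay near the threshold (adjusted p = 0.0447 in limma) and lost its call in 26 of 33 alternative settings.

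Of 19 genes of the Roquin, Cbl-b and ubiquitin ligase list, 1 was higher and 3 lower (median -0.07). That is 21.05% called, against 11.3% of all genes, and differences of the tested members ranged from -0.60 to 0.44. Ndfip1, an adaptor of the ligase ITCH, was higher (0.44 ± 0.08), and Cish (-0.60 ± 0.13), Peli1 (-0.44 ± 0.10) and Socs3 (-0.32 ± 0.08) were lower.

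Proliferation genes passed upward in 6 of 19 tested members (median 0.33). Mcm6, a subunit of the replicative helicase, stood at 8.37, 8.67 and 9.29 against 7.35, 7.60 and 7.96 (1.12 ± 0.15, adjusted p = 0.000356). Top2a stood at 7.77, 8.34 and 8.50 against 7.20, 7.43 and 7.72 (0.76 ± 0.11, adjusted p = 0.000952). Mki67 stood at 6.15, 7.16 and 8.03 against 5.75, 5.95 and 6.45 (1.05 ± 0.20, adjusted p = 0.00419). The first 2 genes separated the sides, and Mki67 did not, with a PD1- mean below the array median. Cenpe (0.90 ± 0.19) and Tyms (0.57 ± 0.12) were higher with overlap. Other subunits of the same helicase, Mcm2 to Mcm5 and Mcm7, did not pass and ranged from -0.40 to 0.23.

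Metabolic lists gave a partial picture. Of 20 genes of glycolysis and nutrient uptake 6 were higher (median 0.06): Pfkp (0.70 ± 0.10, adjusted p = 0.000502), Tpi1 (0.97 ± 0.17), Pgk1 (0.67 ± 0.13), Aldoa (0.54 ± 0.10), Aldoc and the amino acid transporter chain Slc3a2 (0.61 ± 0.09, adjusted p = 0.000769). The glucose transporter genes Slc2a1 and Slc2a3 differed by 0.02 and -0.67 and did not pass. Of 30 genes of the respiratory chain and ATP synthase only Ndufa1 was called (0.64 ± 0.15, adjusted p = 0.0181; median 0.05). Of 19 genes of sterol and fatty acid synthesis 2 were higher (median 0.02), Scd2, a desaturase (1.35 ± 0.22, adjusted p = 0.00171), and Fdft1, squalene synthase (0.69 ± 0.19). Their share of 10.53% lay near the 11.3% called among all genes.

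Genes of the cytosolic ribosome lay on the lower side throughout. All 25 tested members had a difference below 0, from -0.97 for Rpl12, which did not pass, to -0.02 for Rps6, and the median was -0.36. In limma 16 of the 25 passed, all lower, against 5.63% of all genes. Rpl8 stood at 10.62, 10.83 and 11.04 against 11.32, 11.47 and 11.65 (-0.63 ± 0.08, adjusted p = 0.000342). Rps3 stood at 11.34, 11.46 and 11.57 against 11.81, 11.95 and 12.06 (-0.48 ± 0.07, adjusted p = 0.000556). Rps7 stood at 11.74, 11.86 and 11.91 against 12.23, 12.29 and 12.40 (-0.45 ± 0.07, adjusted p = 0.00101). These transcripts are among the brightest on the arrays, and the sides of all 3 genes were apart by less than 1 log2 unit. The differences were small: no called member passed when a difference had to exceed 0.5, and 15 were lower with cyclic loess on top of RMA. Ribosomal protein genes have many near-identical processed copies, which the probes may not separate, so the assignment to single genes is uncertain.

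**Figure D5:**
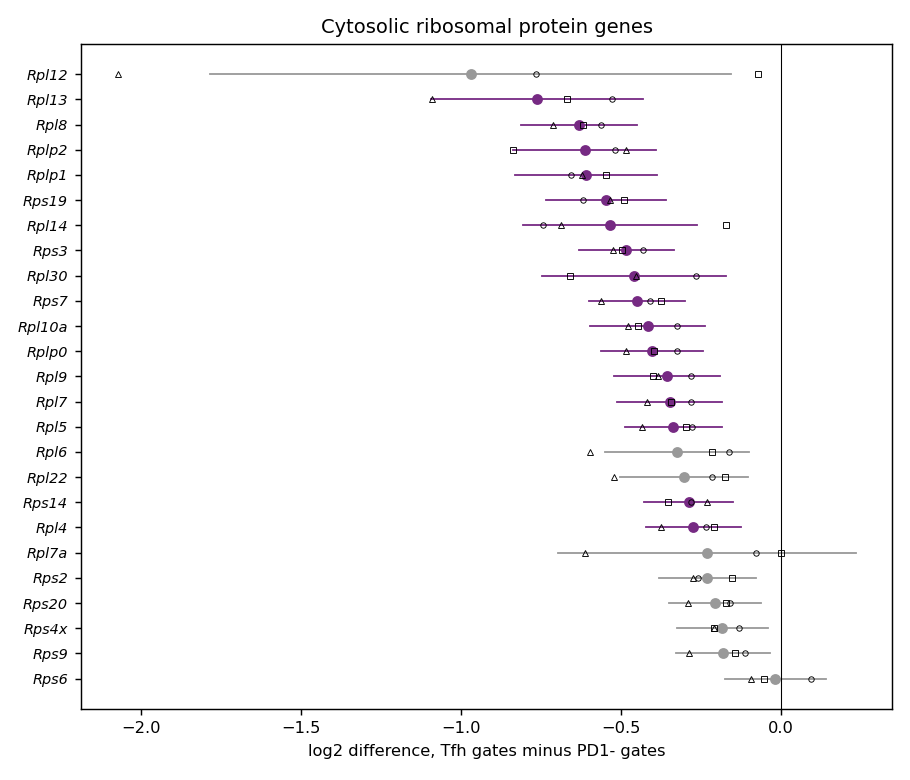
Difference between the sides (Tfh minus PD1-, log2) of the 25 cytosolic ribosomal protein genes tested, as the estimate with its 95% interval (called in purple, others in grey) and as the difference within replicate 1 (circle), 2 (square) and 3 (triangle). All 25 estimates lie below 0, from -0.97 for Rpl12 to -0.02 for Rps6.

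In the lysosome and progranulin list 7 of 21 genes were higher and 2 lower (median 0.21). Besides Grn and Eea1, Lamp2, a lysosomal membrane protein gene, stood at 8.65, 8.89 and 9.11 against 7.53, 7.67 and 7.88 (1.20 ± 0.10, adjusted p = 8.49e-06). Ctsb, cathepsin B, stood at 9.11, 9.33 and 10.20 against 8.06, 8.16 and 8.56 (1.22 ± 0.11, adjusted p = 2.13e-05). Npc2, which carries cholesterol inside the lysosome, stood at 8.53, 8.93 and 9.14 against 9.88, 10.05 and 10.18 (-1.15 ± 0.09, adjusted p = 8.53e-06). All were separated between the sides, the first pair upward and Npc2 downward. Genes of endoplasmic reticulum folding and secretion had 3 of 28 higher (median 0.06): Atf6 (0.82 ± 0.18), Ern1 (0.43 ± 0.11) and Creld2 (0.44 ± 0.12), with overlapping arrays. With 28 members tested and 11.3% of all genes called, that count is near the background. Of the transducers of the unfolded protein response Atf6 and Ern1 passed, and Eif2ak3, which encodes PERK, lay on the other side of 0 and did not (-0.40 ± 0.13, adjusted p = 0.0853). The chaperone gene Hspa5 (0.04) and Xbp1 (-0.01) did not pass.

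The interferon response list had 4 of 21 genes lower (median -0.11): Ifit2 (-0.55 ± 0.09, adjusted p = 0.00146), Irf1 (-0.91 ± 0.16), Oas2 (-0.52 ± 0.10) and Ddx58 (-0.55 ± 0.12). Of 17 genes of TGF-beta receptors and SMAD proteins, 3 were lower and 1 higher (median -0.06). Smad7, the inhibitory SMAD that TGF-beta induces, stood at 6.79, 6.94 and 7.40 against 8.37, 8.65 and 9.16 (-1.68 ± 0.12, adjusted p = 2.99e-06) and no overlap. Tgfbr3 (-0.47 ± 0.07) and Smad4 (-0.39 ± 0.10) were lower by less, and Tgif1 was higher (0.36 ± 0.08).

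Of 16 sialyltransferase and glycan genes, 3 were higher and 4 lower (median 0.03). After St8sia6 and Cmah the lower members were St3gal6 (-0.98 ± 0.14, adjusted p = 0.000505) and St3gal4 (-0.63 ± 0.11), both of which add sialic acid in alpha linkage to galactose. St3gal1, which acts on O-glycan cores, was higher (0.67 ± 0.15), and so was Fut8, the core fucosyltransferase (0.85 ± 0.20). Of 15 P4-ATPase and scramblase genes, 3 were higher and 3 lower (median -0.24). Atp8b4 stood apart from its family: Atp11b (-0.65 ± 0.11), Atp8a1 (-0.51 ± 0.14), Atp9b (0.69 ± 0.15) and Atp9a (0.34 ± 0.08) all differed by less than 1. Of 11 complement regulators measured 2 reached the filter, Cd55 and Cr1l, and Cr1l differed by -0.06.

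Other cells of the Peyer's patch left little signal. In the B cell list 1 of 6 tested genes was called, Pax5 (0.30 ± 0.09, adjusted p = 0.0469), and the mean level of the 18 measured members was -0.72 to -0.49 relative to the array median on the Tfh arrays and -0.77 to -0.56 on the PD1- arrays, with Ms4a1 and Cd79a below the filter. None of 7 tested genes of germinal centre B and plasma cells was called in limma (2 higher and 1 lower at an unadjusted p under 0.05), with mean levels of -0.21 to 0.04 and -0.19 to -0.11. None of 5 epithelial genes was called (0 at an unadjusted p under 0.05), with levels of -0.87 to -0.67 and -0.82 to -0.73. The stromal list had 1 of 7 called, Cxcl13 (0.44 ± 0.09, adjusted p = 0.00754), also a chemokine made by human Tfh cells, with levels of 0.04 to 0.20 and 0.04 to 0.17.

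Few genes were called between the 2 gates of a side, where 3 arrays a gate and the wide spread of the GFP+ arrays limit detection. An F test of GFP+ against GFP- Tfh and of CXCR5+PD1- against CXCR5-PD1- called 3 of 11240 genes (0.0267%) in limma, with 596 at an unadjusted p under 0.05. Itm2a, an integral membrane protein gene induced in thymocytes, was 1 of them and was also lower on the Tfh side (-2.63 ± 0.48, adjusted p = 0.0034): it averaged 5.60 on the GFP+ and 7.82 on the GFP- Tfh arrays, with 9.20 and 9.48 on the CXCR5+ and CXCR5- arrays of the PD1- side (F test adjusted p = 0.0106). Il2ra, the interleukin 2 receptor alpha chain, averaged 5.83 on the GFP+ and 8.55 on the GFP- Tfh arrays, with 8.77 and 9.09 on the CXCR5+ and CXCR5- arrays of the PD1- side (F test adjusted p = 0.0106), and the side difference of -1.74 ± 0.59 did not pass (adjusted p = 0.0863). Adamts6, a metalloproteinase gene, averaged 5.92 on the GFP+ and 7.14 on the GFP- Tfh arrays, with 7.26 and 7.47 on the CXCR5+ and CXCR5- arrays of the PD1- side (F test adjusted p = 0.0395), and the side difference of -0.83 ± 0.27 did not pass either (adjusted p = 0.0769). Both passed downward in 6 alternative settings: with 4 gate means, with the gates averaged within a replicate number, without any 1 of the 3 GFP- Tfh arrays and without that gate. Their differences ranged from -3.1 to -0.38 for Il2ra and from -1.45 to -0.22 for Adamts6 over the 33 settings. For Il2ra and Adamts6 the pooled comparison therefore averaged a low GFP+ gate with a GFP- gate near the PD1- level.

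Gates of a side also lay apart, short of the threshold, for some genes called between the sides. St8sia6 differed by -1.27 ± 0.15 between GFP+ and GFP- Tfh (F test adjusted p = 0.0686) and Ccr7 by -0.74 ± 0.11 (F test adjusted p = 0.205). Ppp3ca differed by -0.80 ± 0.12 between GFP+ and GFP- Tfh (F test adjusted p = 0.205), and Chn2, a GTPase-activating protein of Rac, by -0.82 ± 0.12 (F test adjusted p = 0.205), while Chn2 was higher on the Tfh side as a whole (1.54 ± 0.19, adjusted p = 0.000221). Of the genes called between sides 8.47% had an unadjusted p under 0.05 in the F test, against 5.30% of all genes tested.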

How the data were processed

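RNA of the 12 sorted samples was hybridised to Affymetrix mouse gene arrays. The authors deposited log2 values of 34760 probe sets, made by RMA (oligo), per the submitters' processing notes. RMA compresses low signals and removes shifts common to most genes. A genome build was not given in the sources used here. All 12 columns were mapped by title (0 left unmapped). Of the probe sets, 21640 had 1 gene symbol (21553 updated by gene ID through RefSeq, GRCm38.p6, 87 kept older symbols), 1321 had several and 11799 had none here. For the 954 genes with more than 1, the probe set with the highest mean was used. Tests were limma 3.58.1 in R 4.3.3 (lmFit, eBayes, 8 residual degrees of freedom) with side and replicate number as terms; the code was tested on simulated data. The replicate number was a term of the planned comparison. What a number marks is not stated in the labels. Of 18 same-numbered pairs 8 had deviations correlated above 0.1 (r from -0.02 to 0.353). For replicates 1, 2 and 3, r was 0.253, 0.041 and 0.283 between the Tfh gates and 0.231, 0.21 and 0.353 between the PD1- gates. Across the sides 3 of 12 pairs lay above 0.1 (r from -0.02 to 0.196). The fit counts 6 arrays a side and does not model a link between gates within a side, so its p-values can be too small. No 2 arrays were identical (r 0.8995 to 0.975).

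The genes named are the sort and reporter genes, the 12 highest and 12 lowest differences among called genes without overlap, the 5 smallest p-values each way, up to 5 members of each list by p and 5 called genes by the F test; predicted genes are skipped. Further genes were named after their values were seen, among them Maf, Bach2, Zap70, Myc, Il2ra, Adamts6, Foxp3, Selplg, Itgb7, Itga6, Ifngr1, Fut8, Tox2, Il6ra, Irf4, Cd28, Gpr183 and those in the closing section. Members of lists and the lists themselves were chosen with earlier results of these data known. Alternatives changed the block, the units, the filter, weights, normalisation, moderation, the probe set rule and the arrays included.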

Additional observations from a re-analysis of the deposited data

Results flagged for a closer look

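Among the 6 arrays of a side, 1 array stood far from the other 5 for 21 of 372 combinations of a named gene and a side, and chance alone flags about 1 in 20. GFP+ Tfh arrays made up 11 of them. Each is given as the value of that array with the nearest other array of its side. Apart on CXCR5+PD1- replicate 1 stood Tox2 at 7.35 (nearest 7.02). Apart on CXCR5+PD1- replicate 3 stood Cd44 at 8.07 (nearest 7.84). Apart on CXCR5-PD1- replicate 1 stood Rasa1 at 10.42 (nearest 10.25), Socs3 at 8.45 (nearest 8.28) and Tgfbr3 at 8.04 (nearest 7.86). Apart on CXCR5-PD1- replicate 3 stood Il6ra at 8.63 (nearest 8.31). Apart on GFP+ Tfh replicate 1 stood Atp8b4 at 5.78 (nearest 5.56) and Lag3 at 9.37 (nearest 8.69). Apart on GFP+ Tfh replicate 2 stood Il4ra at 7.81 (nearest 8.53). Apart on GFP+ Tfh replicate 3 stood Il4 at 6.84 (nearest 9.69), Grn at 9.77 (nearest 10.31), Zdhhc2 at 9.29 (nearest 8.36) and Cd200 at 7.78 (nearest 8.64). The same array also stood apart for Nlrc3 at 6.42 (nearest 7.25), Pgk1 at 9.85 (nearest 10.58), Atf6 at 7.31 (nearest 8.18) and Rpl12 at 4.89 (nearest 7.17). Apart on GFP- Tfh replicate 1 stood Tnfsf10 at 6.44 (nearest 5.83) and St3gal4 at 6.54 (nearest 6.21). Apart on GFP- Tfh replicate 2 stood Runx3 at 8.66 (nearest 7.75) and Ern1 at 8.86 (nearest 8.20).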

How the results depend on the processing

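Of 33 alternative settings, 28 gave a count of called genes within 1.5 times the 1275 of Tfh over PD1- gates, and 5 did not: 237 (136 higher, 101 lower) with a minimum difference of 0.5, 661 without replicate 1, 654 without replicate 2, 544 without the CXCR5+PD1- gate and 507 without the CXCR5-PD1- gate. Leaving out arrays or replicate numbers gave 654 to 1516, the highest without GFP+ Tfh replicate 3. With no replicate block the count was 1203 (1150 of the genes called with it), with the block as a random effect 1228, and with the gates averaged within a replicate number 853. That averaging lost 27 of the 172 calls of named genes, those of Cd69, Dusp1, Rps3 and Rps7 among them. Cyclic loess gave 1367 (53.7% higher), weights per array 1607, no filter 1237 and every probe set on its own 1413. The share of higher genes was 50.4%, 60.2% without replicate 3, 57.8% without the GFP+ Tfh gate and 41.4% without the GFP- Tfh gate, and the cause was not tested. The F test between gates of a side called 3 genes, 1 with a weight per gate, 4 with no replicate block and 0 to 12 on leaving out single arrays. It called 12 in limma without GFP+ Tfh replicate 1 (1370 at an unadjusted p under 0.05, against 596 with all arrays). It called 0 in limma without GFP- Tfh replicate 1, 2 or 3 (455, 408 and 406 at an unadjusted p under 0.05). No named gene changed direction in a setting where it, or the comparison as reported, was called. Beyond replicate numbers and gates left out, calls lost with no replicate block were those of Bag3, Ccl5, Cd40lg, Ern1, Fdft1, Gzmb, Il23r, Nr4a3 and Tgif1. Members of the ribosomal list called lower numbered 0 with a minimum difference of 0.5 and 4 to 21 in the other settings. Signals below the array median and 6 arrays a side limit the detection of small differences.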

Other observations

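Several genes with wide differences belonged to no list and were singled out after their values were seen. Upward, Vdr, the vitamin D receptor, stood at 6.91, 7.80 and 7.98 on the Tfh arrays (lowest, median and highest) and at 5.63, 6.0 and 6.43 on the PD1- arrays (1.58 ± 0.10, limma adjusted p = 2.33e-06). Hey1, a transcriptional target of Notch, stood at 8.32, 8.70 and 9.61 against 6.85, 7.03 and 7.16 (1.75 ± 0.17, adjusted p = 4.10e-05). Egln3, an oxygen-sensing prolyl hydroxylase, stood at 8.20, 8.73 and 9.49 against 6.79, 6.97 and 7.33 (1.77 ± 0.18, adjusted p = 4.40e-05). Ntrk3, the neurotrophin 3 receptor, stood at 7.70, 8.11 and 8.59 against 5.91, 6.25 and 6.50 (1.92 ± 0.13, adjusted p = 2.33e-06). None of these 4 genes had overlapping sides. Penk, the precursor of enkephalins, was higher with a larger error (1.80 ± 0.38, adjusted p = 0.00792), with gate averages of 7.72 (GFP+ Tfh) and 9.22 (GFP- Tfh). The Penk call was lost without replicate 1, without the GFP- Tfh gate, without either PD1- gate and with a minimum difference of 0.5.

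Downward, Ms4a4b, a membrane protein gene of the CD20 family, stood at 5.83, 7.94 and 8.15 against 9.70, 9.82 and 9.97 (-2.32 ± 0.33, adjusted p = 0.00061). Trat1, a T cell receptor-associated transmembrane adaptor, stood at 5.18, 6.82 and 7.64 against 8.35, 8.56 and 9.19 (-2.09 ± 0.39, adjusted p = 0.00373), and Mgat4a, an N-glycan branching enzyme, at 4.85, 6.20 and 7.06 against 7.79, 8.22 and 8.41 (-2.14 ± 0.37, adjusted p = 0.00261). The call of Trat1 was lost without either PD1- gate and that of Mgat4a without the CXCR5-PD1- gate. Ecm1, a secreted matrix protein gene, was lower by less (-1.59 ± 0.19, adjusted p = 0.00016). The PD1- arrays of Ms4a4b, Trat1 and Mgat4a lay within 1 log2 unit of each other, and the Tfh arrays spread over more than 2 units, with lower averages in the GFP+ gate. For none of the 3 did limma's F test between gates of a side pass (adjusted p = 0.921, 0.442 and 0.55, and unadjusted p under 0.05 for all 3). Ly96, the partner of the lipopolysaccharide receptor TLR4, ranged from 3.77 to 7.68 on the Tfh arrays and from 3.73 to 4.86 on the PD1- arrays (2.23 ± 0.55, adjusted p = 0.02). Its sides overlapped, all 6 PD1- arrays lay below the array median, and leaving out GFP+ Tfh replicate 1 or replicate 2 of any other gate ended its call.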
